A study of Mus musculus with 6 samples.

Results

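The 10 major urinary protein genes described here are Mup1, Mup2, Mup3, Mup7, Mup10, Mup11, Mup12, Mup17, Mup20 and Mup21. They are 10 of 49 Mup symbols in the files, which hold 22 genes and 27 pseudogenes among 55802 symbols in all. They were picked by name, after their spread among libraries and their difference between the chow groups had been seen in these libraries. Their levels and differences are therefore given as a description, with no test. Each member passed the filter on low counts.

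The study sequenced poly(A)-selected liver RNA of male C57BL/6 mice reared for 71 weeks, to ask how long exposure to polystyrene microplastic (PS-MP) bears on liver gene expression. The control group had 3 libraries from males on normal chow, and the PS-MP group had 3 libraries from males on chow containing PS-MP. Both groups had the same strain, sex, tissue and time, with particle size and dose not given in the sources used here. Nothing in the labels says that each library is a separate animal, so p-values measure the spread between these libraries, which may be technical.

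Major urinary proteins are small secreted lipocalins, barrel-shaped proteins that carry volatile pheromones. Hepatocytes make them in large amounts, males more than females, and they pass through the blood into urine, where they serve as scent marks. Their transcription in the male liver depends on pulsed growth hormone acting through the receptor, the kinase JAK2 and the factor STAT5B, and also on thyroid hormone and glucocorticoid. The genes lie side by side on chromosome 4, and most are recent copies of each other.

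The copies divide by sequence into near-identical members and members that stand apart, which sets how far reads can be assigned to a single gene. Among Mup1, Mup2, Mup7, Mup10, Mup11, Mup12 and Mup17, coding sequences were 97.8% to 99.63% identical (21 pairs, GENCODE M21 transcripts on GRCm38). Mup20 had 89.93% to 90.84% identity with these 7, Mup21 83.61% to 84.62% and Mup3 81.44% to 82.88%, while Mup3 and Mup21 were 93.87% identical to each other. The following 60 coding bases are the stretch in which the 3 divergent members differ most from Mup2, and capitals mark bases that differ from Mup2. They run from base 212 of the coding sequence in Mup2, Mup7 and Mup10, from base 215 in Mup20 and Mup21, and from base 224 in Mup3.
Mup2: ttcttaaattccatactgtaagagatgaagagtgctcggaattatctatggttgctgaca
Mup10: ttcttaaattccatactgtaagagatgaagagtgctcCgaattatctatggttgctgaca
Mup7: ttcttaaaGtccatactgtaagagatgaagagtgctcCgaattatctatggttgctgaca
Mup20: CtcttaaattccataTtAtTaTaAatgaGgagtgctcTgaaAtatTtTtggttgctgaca
Mup21: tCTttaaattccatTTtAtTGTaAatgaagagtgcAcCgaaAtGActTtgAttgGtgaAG
Mup3: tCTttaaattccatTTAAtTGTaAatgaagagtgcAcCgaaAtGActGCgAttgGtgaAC
Mup1, Mup11 and Mup12 have the letters of Mup2 throughout this stretch, and Mup17 differs from it at 2 bases, as Mup7 does. A read from this stretch thus separates Mup20 (11 differences), Mup21 (19) and Mup3 (21) from the near-identical copies, and cannot separate Mup1, Mup2, Mup11 and Mup12. Over whole transcripts, 0% of the 50-base windows of Mup2 occur in no other annotated transcript. The share was 3.64% for Mup7, 5.24% for Mup1, 11.01% for Mup11, 13.78% for Mup10, 14.6% for Mup12 and 21.87% for Mup17, against 49.49% for Mup20, 80.73% for Mup21 and 84.39% for Mup3. With the treatment of reads that fit several copies not given in the sources used here, single values among the 7 are uncertain and their sum is given too.

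Upstream of the genes the same split is seen. RefSeq promoters (GRCm38.p6) were matched for 7 of the 10 members (Mup2, Mup3, Mup7, Mup10, Mup11, Mup17 and Mup21) and for 14 of the 22 Mup genes. Each of the 14 held the letters ATCAAT, the core of sites bound by the ONECUT and CUX factors, exactly 2 times in the 250 bases before its annotated start, on either strand. Among 32851 promoter windows of that length 6.72% held ATCAAT at all. The stretches of 110 bases below come from the minus strand of chromosome 4, and capitals mark ATCAAT. They are shown because these 4 members stand for both sequence groups.
Mup2, chr4:60139977-60140086: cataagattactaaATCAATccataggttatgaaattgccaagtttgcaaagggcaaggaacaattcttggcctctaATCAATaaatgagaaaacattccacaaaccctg
Mup17, chr4:61595948-61596057: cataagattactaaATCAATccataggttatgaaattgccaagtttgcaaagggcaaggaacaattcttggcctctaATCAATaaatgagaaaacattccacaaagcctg
Mup3, chr4:62087384-62087493: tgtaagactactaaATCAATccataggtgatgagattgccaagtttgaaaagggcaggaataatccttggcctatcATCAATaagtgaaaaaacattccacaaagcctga
Mup21, chr4:62150902-62151011: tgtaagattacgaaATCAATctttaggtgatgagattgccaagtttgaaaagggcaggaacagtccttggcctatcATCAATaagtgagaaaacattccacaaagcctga
Between the capitals lie 57 bases in Mup2 and Mup17, as in Mup7, Mup10 and Mup11, and 56 bases in Mup3 and Mup21. No window of the 14 held TTCNNNGAA, the letters of a STAT site, which 7.02% of all windows held. The letters TATATAA, a form of the TATA box held by 3.04% of all windows, were found in the windows of Mup2, Mup3, Mup10, Mup17 and Mup21 and not in those of Mup7 and Mup11. The 14 windows resemble each other as copies do, so they are not 14 separate observations to set against the shares of all windows. These matches describe letters in this window only.

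The libraries held 68357478 to 112566641 counts, and 17662 genes passed the filter on low counts. Levels are counts scaled to a common library total (CPM) with the TMM method, the trimmed mean of M values. Hepatocyte markers summed to 60270 to 84520 CPM in each library and kidney markers to at most 1.97 CPM. Reads of 18S ribosomal RNA (Rn18s-rs5) made up 1.15% to 11.2% of the control libraries against 0.387% to 1.14% of the PS-MP libraries, with no overlap. By edgeR's quasi-likelihood test with Benjamini-Hochberg adjustment, 2 of all genes tested passed 0.05, both higher in PS-MP (0.0113%), 950 had an unadjusted p under 0.05, and DESeq2 called 187 (1.06%). Of the 10 members edgeR called 0, 0 had an unadjusted p under 0.05 and DESeq2 called 0. Nothing is read from that, since the members were chosen on this contrast.

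Together the 10 members were lower on average in PS-MP, but only in the libraries PS-MP 1 and PS-MP 2. Their sum stood at 19596, 36541 and 25556 CPM in control 1, 2 and 3, and at 3662, 8148 and 23354 CPM in PS-MP 1, 2 and 3. PS-MP 1 and 2 lay below every control library, and PS-MP 3 lay between control 1 and control 3, so the groups overlap. The control mean was 27231 ± 8596 CPM and the PS-MP mean 11721 ± 10321 CPM (SD, n = 3 each), a fitted log2 fold change of -1.22 (SE 0.65). Without PS-MP 3 the log2 fold change was -2.22, and without PS-MP 1 it was -0.78. As a share of all counts the sum took 1.88%, 3.26% and 2.40% of the control libraries against 0.382%, 0.907% and 2.51% of PS-MP 1, 2 and 3. All 49 Mup symbols together took 3.27%, 5.36% and 4.35% of the control libraries against 0.506%, 1.25% and 4.34%. Leaving mitochondrial and ribosomal RNA genes out of the total changed the mean shares of the 10 members from 2.51% to 3.23% (control) and from 1.27% to 1.47% (PS-MP). Since these are bulk livers, fewer cells of a type and less RNA per cell cannot be told apart.

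**Figure D1:**
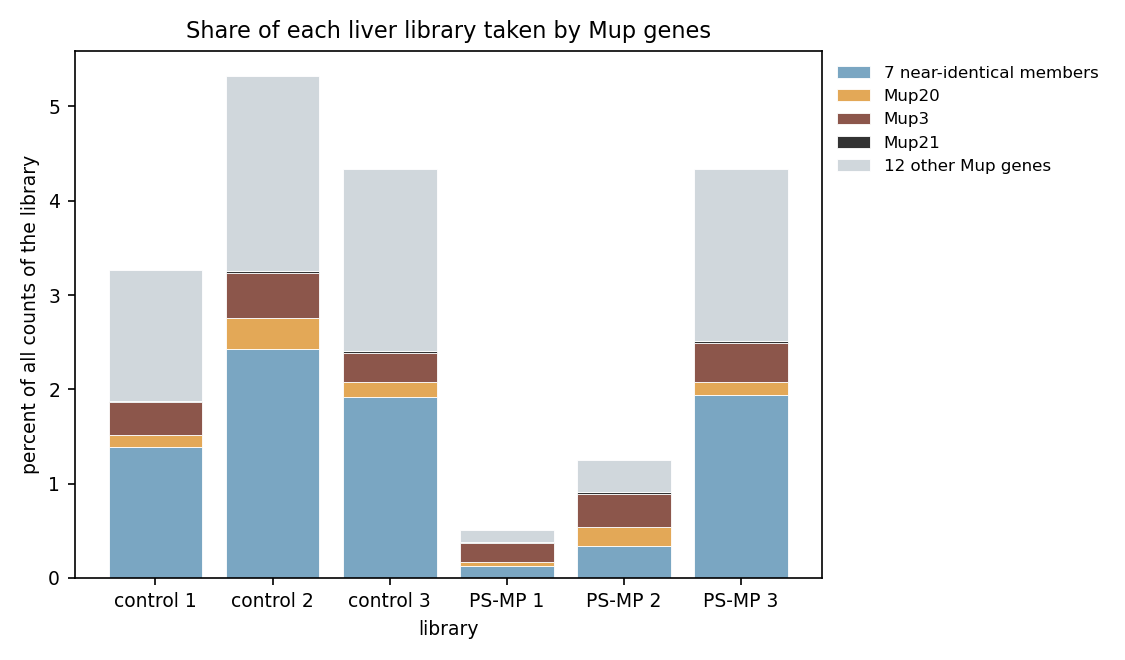
Percent of all counts of each library (y axis, from 0) taken by Mup genes, stacked by gene set, for 3 control and 3 PS-MP libraries (x axis). PS-MP 1 and PS-MP 2 have the shortest bars, and the bar of PS-MP 3 stands within the range of the control libraries.

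The 7 near-identical members carry most of that pattern. Summed, they stood at 14522, 27203 and 20424 CPM in the controls and at 1170, 2995 and 18044 CPM with PS-MP. PS-MP 1 was 17.7-fold and PS-MP 2 6.92-fold below the control mean, while PS-MP 3 was 1.15-fold below it and inside the control range. Mup7 showed the widest range, with 2270, 6651 and 3815 CPM in the controls against 85.7, 233 and 3803 CPM with PS-MP. Its PS-MP libraries thus differ by 44.4-fold among themselves and its control libraries by 2.93-fold (log2 fold change -1.63, SE 1.30). Mup7 encodes one of the urinary lipocalins, as do the members that follow.

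Mup1 had 1647, 3088 and 2137 CPM in the controls against 98.5, 266 and 2124 CPM with PS-MP (log2 fold change -1.47, SE 1.04). Mup12, whose closest copy among the Mup genes is Mup1 at 99.63% identity, had 1385, 2763 and 1678 CPM against 83.2, 223 and 1717 CPM (-1.53, SE 1.03). In both genes PS-MP 1 was about as far below the control mean, by 23.2-fold in Mup1 and 23.4-fold in Mup12. Mup2 stood at 1562, 2638 and 2282 CPM in the controls against 141, 382 and 1934 CPM with PS-MP (-1.40, SE 0.88). Mup17 had 1969, 3292 and 2699 CPM in the controls against 137, 341 and 2095 CPM with PS-MP (-1.63, SE 0.93). These 4 genes share the order of libraries seen in Mup7, with PS-MP 1 lowest, PS-MP 2 next and PS-MP 3 among the controls.

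Mup10 and Mup11 kept the highest levels of the 7 in PS-MP 1 and PS-MP 2. Mup10 had 3226, 4842 and 4517 CPM in the controls against 379, 997 and 3578 CPM with PS-MP (-1.34, SE 0.75), so PS-MP 1 was 11.1-fold below the control mean. For Mup11 the values were 2464, 3930 and 3297 CPM in the controls against 245, 554 and 2794 CPM with PS-MP (-1.43, SE 0.84), with PS-MP 1 13.2-fold below. In each of the 7, PS-MP 1 and PS-MP 2 lay below every control library and PS-MP 3 lay inside the control range, so the groups overlapped. Without PS-MP 3 the log2 fold changes of the 7 ran from -4.75 (Mup7) to -2.62 (Mup10), and without PS-MP 1 from -1.11 (Mup17) to -0.87 (Mup10).

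**Figure D2:**
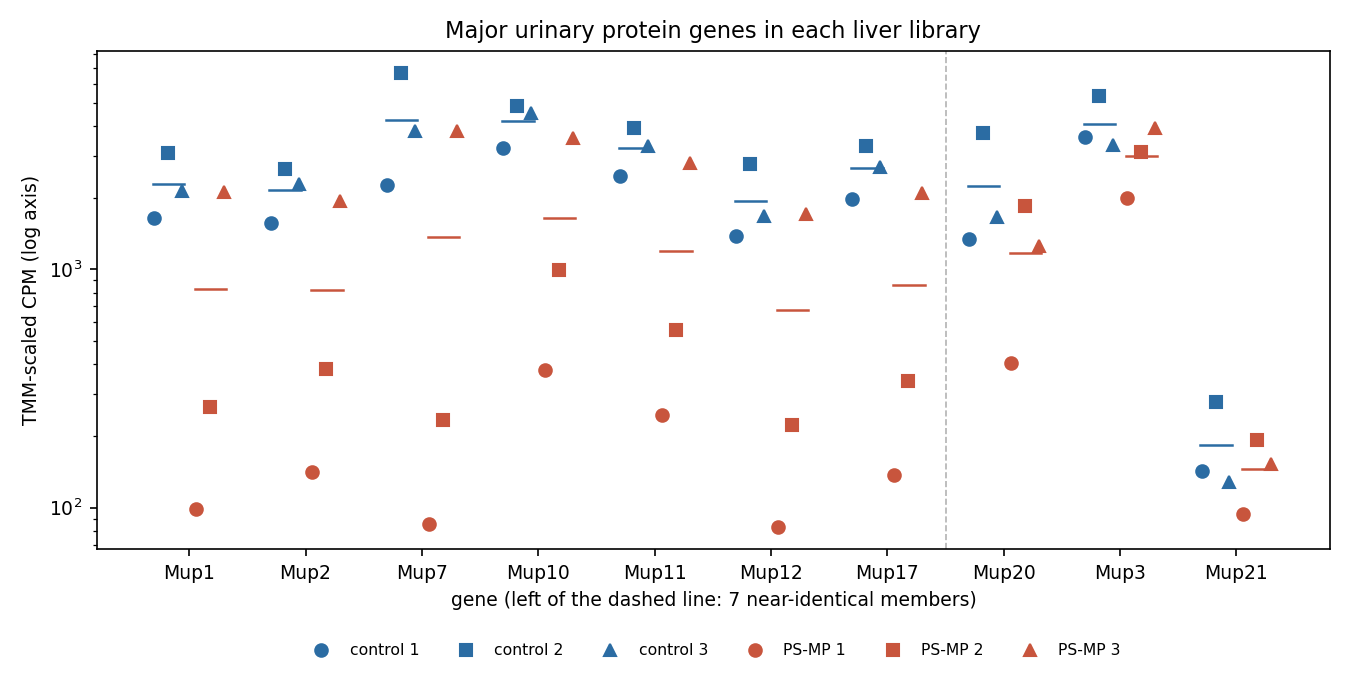
TMM-scaled CPM (y axis, log scale) of each member (x axis) in 3 control libraries (blue) and 3 PS-MP libraries (red), with a short line at each group mean. For the 7 genes left of the dashed line PS-MP 1 and PS-MP 2 sit far below all other libraries, whereas for Mup20, Mup3 and Mup21 the gap is smaller.

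Mup20 encodes darcin, the male pheromone that draws females to a scent mark. It had 1339, 3723 and 1664 CPM in the controls against 404, 1854 and 1251 CPM with PS-MP (-0.94, SE 0.61). Here PS-MP 2 was inside the control range and PS-MP 3 just under the lowest control, so only PS-MP 1 stood well apart, 5.54-fold below the control mean. Without control 2 the log2 fold change was -0.36, without PS-MP 1 it was -0.53 and without PS-MP 2 it was -1.43.

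Mup3 and Mup21, which resemble each other in sequence, differed least between the groups. Mup3 had 3592, 5338 and 3339 CPM in the controls against 1994, 3107 and 3906 CPM with PS-MP (-0.45, SE 0.30), with PS-MP 1 2.05-fold below the control mean. Mup21, the least abundant member, had 142, 277 and 129 CPM in the controls against 93.9, 192 and 152 CPM with PS-MP (-0.32, SE 0.37). For Mup21 PS-MP 2 and PS-MP 3 lay inside the control range, and without control 2 the log2 fold change turned to 0.10. Leaving out PS-MP 1 gave -0.09 for Mup21, leaving out PS-MP 2 -0.56 and leaving out control 3 -0.52. That of Mup3 was -0.21 without control 2, -0.22 without PS-MP 1 and -0.70 without PS-MP 3. With scaling by library size alone, which moves the median log2 fold change of all genes from 0.02 to 0.23, Mup3 stood at -0.22 and Mup21 at -0.09.

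Taking the 10 together, 10 had a log2 fold change below zero, with a median of -1.42, where 47.2% of all genes tested were below zero with a median of 0.02. None had all PS-MP libraries below all control libraries, as 4.99% of all genes did. In PS-MP 1, 10 of 10 members lay below the lowest control library, in PS-MP 2 8 of 10 (all but Mup20 and Mup21) and in PS-MP 3 1 of 10 (Mup20). Of all genes, 21.6%, 22.6% and 21.7% lay below their lowest control in these libraries.

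The makeup of the sum differed too. Mup3 made 13.07% to 18.33% of the members' counts of control and 54.45%, 38.13% and 16.73% of PS-MP counts 1, 2 and 3. Mup20 made 6.51% to 10.19% of control and 11.04%, 22.76% and 5.36% of PS-MP counts. Mup7 went the other way, with 11.59% to 18.2% of control and 2.34%, 2.86% and 16.28% of PS-MP counts. In PS-MP 1 and 2 most of the members' counts thus came from Mup3, Mup20 and Mup21.

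Per kilobase of transcript, which allows genes to be compared, the control order was Mup7 (4579 ± 2397 CPM per kb), Mup10 (4525 ± 922), Mup3 (4156 ± 1106), Mup11 (3473 ± 791), Mup17 (2862 ± 715), Mup1 (2471 ± 790), Mup20 (2416 ± 1393), Mup2 (2331 ± 592), Mup12 (2097 ± 784) and Mup21 (270 ± 121) (SD, n = 3). Neighbours in this order lay within 1 SD of each other down to Mup12, and Mup21 lay well below. In PS-MP the highest was Mup3 at 3051 ± 976 CPM per kb, followed by Mup10 at 1782 ± 1831, whose SD exceeds its mean.

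The spread of the family sum within groups was above that of most genes of this abundance, and more so in PS-MP. The SD of log2 CPM of the family sum was 0.45 in control and 1.34 in PS-MP. For the 1101 genes with a mean of at least 100 CPM the median SD was 0.21 in control and 0.18 in PS-MP. The SD of the family sum was exceeded by 121 of those genes in control (11%) and by 26 in PS-MP (2.36%). Mup7 had an SD of 0.78 in control, exceeded by 43 of those genes, and of 2.84 in PS-MP, exceeded by 2. At the other end in control, Mup10 had 0.31, exceeded by 275 (25%), and in PS-MP 1.62, exceeded by 21. Mup20 had 0.78 in control and 1.14 in PS-MP, while Mup3 had 0.36 and 0.49 and Mup21 0.60 and 0.53. Spread was one of the measures that led to the choice of these genes, so these ranks are a description.

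Across the 6 libraries the log2 levels of the 7 near-identical members ran together, with Pearson r of 0.988 to 1 over 21 pairs, as they may share reads. Mup3 had r of 0.866 to 0.893 with the 7, Mup20 0.708 to 0.752 and Mup21 0.504 to 0.542. Mup20 and Mup21 had r of 0.92 with each other. These values are descriptions over 6 libraries, and PS-MP 1 was the lowest library for each of the 10 members.

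The 12 Mup genes outside the 10 followed the near-identical members. Their sum was 14539, 23245 and 20568 CPM in the controls against 1185, 3083 and 16989 CPM with PS-MP. In 12 of 12, PS-MP 1 and PS-MP 2 lay below the lowest control, where 21.6% and 22.6% of all genes did. The highest of them was Mup22, with 3075, 4109 and 3913 CPM in the controls against 332, 879 and 3125 CPM with PS-MP. Mup4, Mup5 and Mup6, which diverge from the other copies, stayed under 4 CPM in each library. Mup4 and Mup6 had 0 counts in PS-MP 1. For the rest of the 12, 0% (as in Mup22) to 10.44% (Mup18) of the 50-base windows occur in no other annotated transcript. These genes may therefore share reads with the near-identical members, and their likeness to them is not a separate observation. Of the 27 pseudogenes 14 passed the filter. Mup-ps19, the most abundant, had 21.9, 330 and 110 CPM in the controls against 7.88, 27.0 and 19.7 CPM with PS-MP, so PS-MP 3 did not return to the control mean there.

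**Figure D3:**
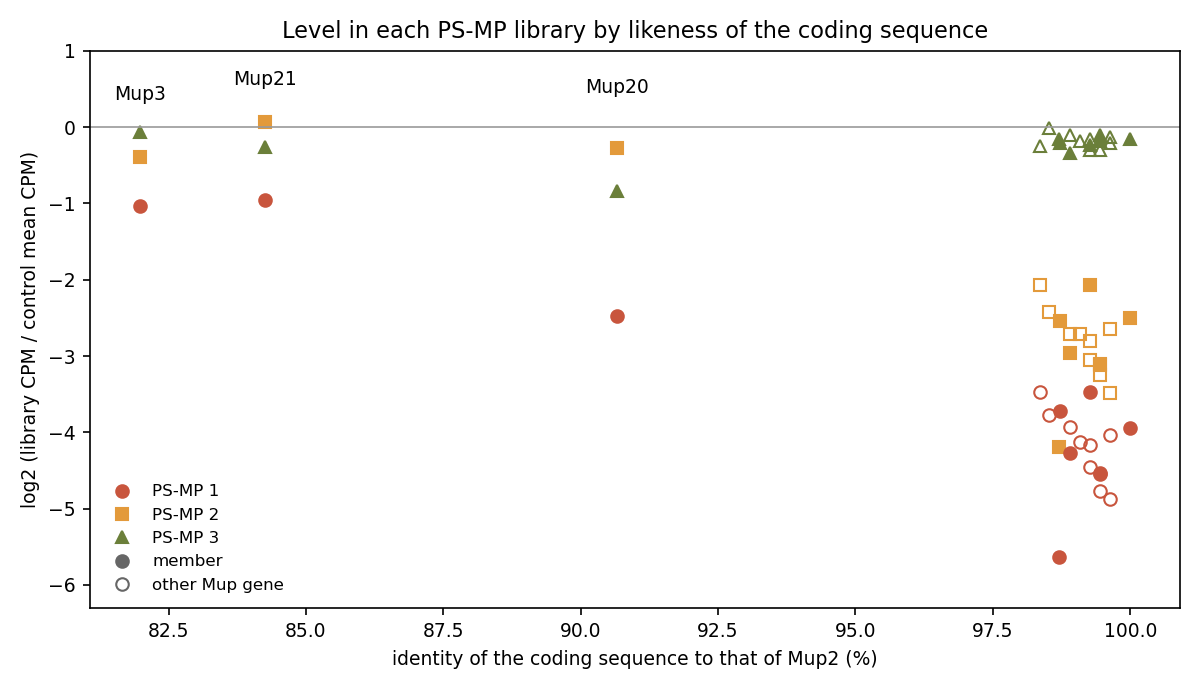
Log2 ratio of each PS-MP library to the control mean (y axis) for 19 Mup genes, placed by identity of their coding sequence to Mup2 in percent (x axis), with filled points for members and open points for other Mup genes; Mup4, Mup5 and Mup6 are left out for low counts. Genes close to Mup2 lie far below zero in PS-MP 1 and PS-MP 2 and near zero in PS-MP 3, and Mup3 and Mup21 lie near zero or about 1 below it.

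Other genes were examined on 7 lists: growth hormone signalling, sex-biased factors, regulators of Mup and hepatocyte genes, male-biased genes, female-biased genes, other lipocalins and secreted hepatocyte proteins. Of their 109 genes, 101 were tested, edgeR called 0, 9 had an unadjusted p under 0.05 and DESeq2 called 2 (Cux2 and Cyp2u1). Growth hormone signalling genes were split, 5 of 10 below zero, with a median log2 fold change of -0.01 (3 below zero and a median of 0.20 by library size alone). Ghr, the receptor, had 222, 366 and 305 CPM in the controls against 287, 323 and 266 CPM with PS-MP. Igf1, a classic STAT5B target, had 258, 459 and 385 CPM in the controls against 369, 461 and 326 CPM with PS-MP. For both the groups overlap widely. Stat5a had 15.4, 12.5 and 14.0 CPM in the controls against 8.33, 6.94 and 11.7 CPM with PS-MP, without overlap (log2 fold change -0.64, SE 0.23, edgeR adjusted p = 0.890). Stat5b, the form that drives male-biased genes, overlapped between groups (-0.24, SE 0.25). Socs2, a feedback inhibitor of the receptor, had 8.65, 9.69 and 14.5 CPM in the controls against 22.9, 14.2 and 16.9 CPM with PS-MP (0.72, SE 0.27, edgeR adjusted p = 0.904).

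Male-biased liver genes were mostly lower in the same libraries as the Mup genes. Of 19 tested 17 were below zero (15 with library size alone), with a median log2 fold change of -0.41, edgeR called 0, 4 had an unadjusted p under 0.05 and DESeq2 called 1 lower. In PS-MP 1 16 of the 19 lay below their lowest control library, in PS-MP 2 15 and in PS-MP 3 6. Of all genes, 21.6%, 22.6% and 21.7% did so in these libraries. Above their highest control lay 6 of the 19 in PS-MP 3, where 22.4% of all genes did. Elovl3, a fatty acid elongase, had 583, 409 and 224 CPM in the controls against 83.4, 63.5 and 585 CPM with PS-MP. Serpina12, which encodes vaspin, had 21.6, 17.6 and 11.5 CPM in the controls against 2.10, 4.41 and 17.5 CPM with PS-MP. Both were low in PS-MP 1 and PS-MP 2 and at control level in PS-MP 3. Cyp4a12a, a fatty acid hydroxylase, differed in that PS-MP 3 was low too, with 457, 334 and 484 CPM in the controls against 149, 204 and 289 CPM with PS-MP (-0.99, SE 0.27, edgeR adjusted p = 0.805). Cyp4a12b had 183, 150 and 177 CPM in the controls against 85.5, 120 and 107 CPM with PS-MP (-0.71, SE 0.16). Nat8f5 had 7.4, 4.8 and 8.5 CPM in the controls against 1.6, 3.5 and 4.6 CPM with PS-MP (-1.10, SE 0.42). Cyp4a12a, Cyp4a12b, Nat8f5 and Cyp2u1 each had all PS-MP libraries below all control libraries, as 4.99% of all genes did. Cyp2u1, the gene that DESeq2 called, had 33.2, 31.3 and 32.2 CPM in the controls against 22.5, 20.4 and 22.9 CPM with PS-MP (-0.55, SE 0.12, edgeR adjusted p = 0.767, DESeq2 adjusted p = 0.0203). Its PS-MP libraries agree closely, unlike those of the Mup genes. Slco1a1 and Keg1 were the pair above zero, at 0.52 (SE 0.85) and 0.07 (SE 0.17).

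Cux2, a repressor of male-biased genes that is normally made in female liver, stood opposite to the Mup genes in PS-MP 1 and PS-MP 2. It had 0.193, 0.214 and 0.293 CPM in the controls against 6.56, 4.87 and 0.385 CPM with PS-MP, so it was high in PS-MP 1 and PS-MP 2. PS-MP 3 was only just above the control libraries. The log2 fold change was 4.06 (SE 0.98, edgeR adjusted p = 0.767, DESeq2 adjusted p = 0.000739). The counts behind it were 58 over the control and 1003 over the PS-MP libraries. Its part in the Mup levels was not tested. Foxa1, a pioneer factor of liver genes, was also highest in PS-MP 1 and PS-MP 2, with 0.496, 0.263 and 0.822 CPM in the controls against 1.14, 2.84 and 0.584 CPM with PS-MP (1.51, SE 0.67, edgeR adjusted p = 0.923). Bcl6 and Onecut1 were not highest in PS-MP 1 and PS-MP 2. Bcl6, a repressor of female-biased genes, had 2.27, 4.43 and 0.208 CPM in the controls against 1.68, 9.81 and 23.6 CPM with PS-MP, and Onecut1 had 2.77, 5.65 and 9.48 CPM in the controls against 3.14, 4.84 and 5.87 CPM with PS-MP.

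Female-biased genes were split in direction. Of 16 tested 10 were below zero and 6 above, with a median of -0.07 that turned to 0.15 with library size alone. Below their lowest control library lay 5 of the 16 in PS-MP 1, 4 in PS-MP 2 and 8 in PS-MP 3, and above their highest 5, 4 and 1. Of all genes, 21.6%, 22.6% and 21.7% lay below and 25.1%, 28.7% and 22.4% above in these libraries. edgeR called 0, 1 had an unadjusted p under 0.05 and DESeq2 called 0. Hamp2, a hepcidin, had 29.4, 8.85 and 46.9 CPM in the controls against 138, 68.4 and 9.26 CPM with PS-MP, with PS-MP 1 and PS-MP 2 highest. Cyp2b9 had 79.0, 15.6 and 123 CPM in the controls against 219, 106 and 34.8 CPM with PS-MP, where PS-MP 2 fell within the control range. Cyp3a41a, another such gene, was lower in each PS-MP library, with 2.19, 0.608 and 0.803 CPM in the controls against 0.413, 0.521 and 0.561 CPM with PS-MP (-1.27, SE 0.52, edgeR adjusted p = 0.921).

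**Figure D4:**
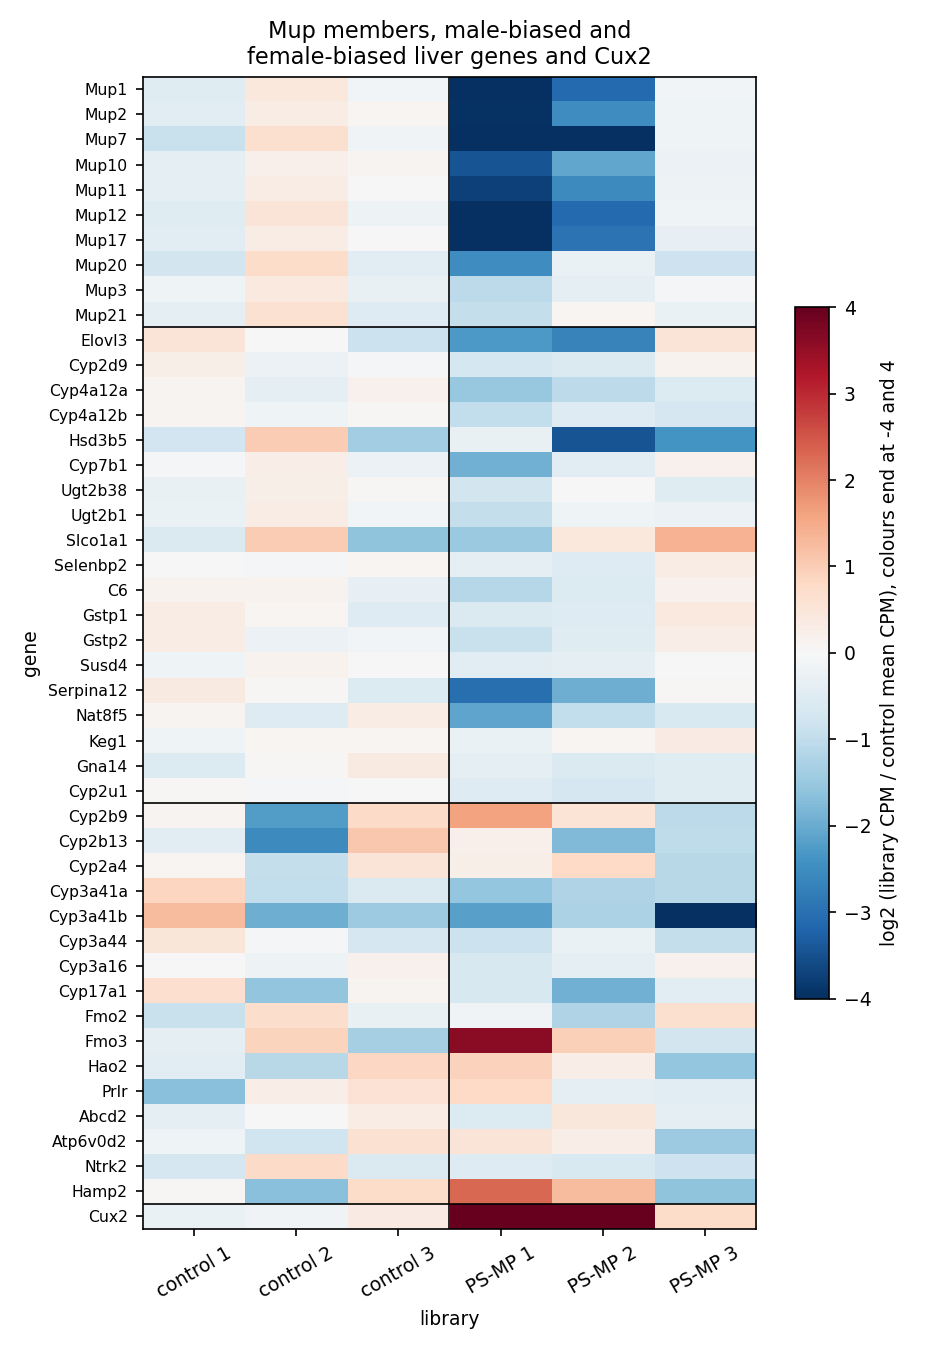
Log2 ratio of each library to the control mean (colour, blue lower and red higher, colours ending at -4 and 4) for the 10 members, 19 male-biased genes, 16 female-biased genes and Cux2 (rows) in 6 libraries (columns). Blue columns for the members and many male-biased genes stand at PS-MP 1 and PS-MP 2, where Cux2 is red.

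Among regulators known from the control of Mup and other hepatocyte genes 12 of 16 were above zero (median 0.10, or 0.31 with library size alone). edgeR called 0, 1 had an unadjusted p under 0.05 and DESeq2 called 0. Zhx2, a regulator of liver genes, had 14.4, 12.6 and 12.6 CPM in the controls against 14.9, 12.8 and 14.4 CPM with PS-MP. Hnf4a and the glucocorticoid receptor gene Nr3c1 each overlapped between groups, at -0.03 (SE 0.15) and 0.37 (SE 0.66). The clock output factor Dbp, which marks time of day, had 2.01, 2.23 and 44.3 CPM in the controls against 35.7, 78.2 and 0.911 CPM with PS-MP. It was thus high in PS-MP 1 and PS-MP 2, where Mup genes were low, and also in control 3, where they were not. The part of sampling time in the Mup levels was not tested.

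Other abundant liver transcripts were near zero as a group. Of 24 secreted hepatocyte protein genes 8 were below zero (median 0.05, with 1 below zero and a median of 0.26 by library size alone). edgeR called 0, 0 had an unadjusted p under 0.05 and DESeq2 called 0. Alb, the albumin gene, had 56450, 46940 and 51080 CPM in the controls against 64520, 48000 and 58490 CPM with PS-MP. Other lipocalins had a median of 0.07 with 3 of 8 below zero (0.28 with 1 below zero by library size alone), and edgeR, an unadjusted p under 0.05 and DESeq2 gave 0 genes each. Rbp4, the retinol carrier gene, had 3586, 2675 and 3364 CPM in the controls against 3056, 2918 and 3365 CPM with PS-MP. Lcn2, an acute phase lipocalin, was highest in PS-MP 1, with 5.26, 2.18 and 6.01 CPM in the controls against 16.2, 5.66 and 4.33 CPM with PS-MP.

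Markers of other cells moved in part with the libraries. The 5 Kupffer cell markers summed to 74.7 to 94.6 CPM in the controls against 108 to 126 CPM with PS-MP, and 5 of 5 were above zero (median 0.42). The 5 endothelial markers were also 5 of 5 above zero (median 0.27), where 47.2% of all genes tested were below zero. Of the Kupffer cell markers Marco had 3.39, 3.50 and 1.54 CPM in the controls against 22.9, 8.42 and 8.62 CPM with PS-MP (2.25, SE 0.52, edgeR adjusted p = 0.767, DESeq2 adjusted p = 0.00267). The 5 neutrophil markers summed to 0.548 to 0.805 CPM in the controls against 1.12 to 5.11 CPM with PS-MP, highest in PS-MP 2, with Ly6g at 0 counts in each library. Among them S100a9 had 0.358, 0.296 and 0.359 CPM in the controls against 0.619, 2.40 and 1.16 CPM with PS-MP (edgeR adjusted p = 0.767, DESeq2 adjusted p = 0.038). The sums of the endothelial, stellate cell, cholangiocyte, adipocyte and lymphocyte lists overlapped between groups, and so did that of mesothelial markers. Within the adipocyte list Retn went lower, with 0.248, 0.181 and 0.331 CPM in the controls against 0 CPM with PS-MP (edgeR adjusted p = 0.767, DESeq2 adjusted p = 0.000919). Its counts were 64 over the control and 0 over the PS-MP libraries. The rest of the adipocyte list went the other way. Adipoq had 2 counts over the control and 20 over the PS-MP libraries, Plin1 0 and 41, and Lep 0 and 10. These PS-MP counts were all in PS-MP 3, and none of these genes passed the filter. Cfd overlapped between groups (0.54, SE 0.78). The part of these cells in the Mup levels was not tested.

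The genes most like the family sum were chosen by Pearson r of log2 CPM over the 6 libraries among 8334 genes with a mean of at least 5 CPM. They were Tmem64 and Ippk (r of 0.986 each), Hikeshi (0.98), Casp8 (0.971), Cela1 (0.97), Tubgcp4 (0.969), Susd4 and Kpna1 (0.962 each), Ulk2 (0.96) and Akt1s1 (0.958). Their ranges were far narrower than that of the family. Tmem64 had 47.0, 52.0 and 45.3 CPM in the controls against 28.6, 33.8 and 46.5 CPM with PS-MP. Susd4, which is also on the male-biased list, had 37.0, 46.0 and 42.2 CPM in the controls against 30.3, 32.6 and 42.5 CPM with PS-MP. An r of at least 0.9 was reached by 91 genes (1.09%) and one of -0.9 or lower by 80. Lowest were Nktr (-0.986), Cyp46a1 and Cul9 (-0.985 each), Fbxw2 (-0.977) and Ifitm2 (-0.975). Cyp46a1, a cholesterol hydroxylase gene, had 7.73, 5.96 and 7.60 CPM in the controls against 22.8, 13.3 and 6.28 CPM with PS-MP. With 6 libraries such values single out no gene, and removing the group means, or using Spearman's rho, kept 1 of the 10 each.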

How the data were processed

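Liver RNA was measured in 3 control and 3 PS-MP libraries. Per the labels, RNA was column-purified, poly(A)-selected and made into directional libraries. Per the submitters' processing notes, bcl2fastq and the build GRCm39 were used, with aligner, counter, annotation and strand setting not given in the sources used here. Whole-number read counts per gene, unnormalised by their values, were deposited. Counts of repeated symbols were summed (56674 rows, 55802 symbols). edgeR 4.0.16 in R 4.3.3 (filterByExpr, TMM scaling, quasi-likelihood test, Benjamini-Hochberg adjustment over 17662 genes, threshold 0.05) gave fold changes with SE as PS-MP minus control, and levels as CPM. DESeq2 1.42.0 was an alternative, as were other scalings and filters, the replicate number as a block and each library left out. Likeness used a prior count of 2. Same-numbered libraries had correlations of deviations of 0.108, 0.139 and -0.128, and differently numbered ones -0.185 to 0.097. With 3 libraries per group these values cannot settle whether the numbers pair libraries. Coding sequences were aligned with mafft 7.526. The fit was tested on simulated data. The named genes were the 10 members, other Mup symbols, genes of the lists (first the 3 of smallest p) and the 10 most and 5 least like the family. Members and lists were chosen with earlier results of these data known. Without a known strand setting, reads of overlapping antisense genes cannot be separated. A gene of the regulator list is not reported here.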

Additional observations from a re-analysis of the deposited data

How the results depend on the processing

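The log2 fold change of the family sum stayed below zero in 13 of 13 alternatives. With a library left out it ran from -2.22 (without PS-MP 3) to -0.78 (without PS-MP 1), and other settings gave -1.60 to -0.99. Without PS-MP 3 the members reached -3.67 for Mup1, -3.06 for Mup2, -4.75 for Mup7, -2.62 for Mup10, -3.03 for Mup11, -3.68 for Mup12 and -3.49 for Mup17. Mup21 was above zero (0.10) without control 2. The sum of the 7 near-identical members, an alternative chosen after seeing the data, gave -1.48. The replicate number as a block, which is not known to pair these libraries, gave -1.60 for the family and -3.49 for Mup7, and took the genes called higher from 2 to 0. DESeq2 called 62 genes higher and 125 lower, and 2 on the 7 lists. With a library left out edgeR called 0 to 3 higher, with 0 without control 3, 1 without PS-MP 1, 1 without PS-MP 3 and 3 without control 2, and 0 to 1 lower, the 1 without control 2. Without mitochondrial and ribosomal RNA genes the control share was 3.23%. Removing group means kept 1 of the 10 most alike genes and Spearman's rho 1. The causes were not tested. Counts of the 10 members run from 6852 to 477823 per library, so none rests on few reads. Single values among the 7 near-identical members remain uncertain, as these copies may share reads.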
